A study of Mus musculus with 207 samples.

Results

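Messenger RNA of 9 genes of class I antigen presentation and interferon signalling was followed in 207 single cells from mouse pancreatic islets. The genes were given by name: H2-K1, H2-D1, H2-T23, B2m, Tap1, Tapbp, Ifngr1, Irf1 and Bst2. All 9 were found among the 44448 gene rows of the expression table. The old group held 69 cells from male mice aged 26 months and the young group held 138 cells from male mice aged 3 months. The labels give no strain, genotype or treatment for either group, call every capture a beta cell, and name no animal. Each islet cell was isolated on a microfluidic chip and its amplified cDNA was sequenced, and levels are in TPM, a unit scaled for transcript length and for a total of 1000000 per cell.

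Class I molecules consist of a heavy chain, here H2-K1, H2-D1 or H2-T23, and the shared light chain beta-2 microglobulin, the product of B2m. They show short peptides from inside the cell to cytotoxic T cells and natural killer cells. Peptides are carried into the endoplasmic reticulum by a pump of which Tap1 is a subunit, and tapasin, the product of Tapbp, holds the heavy chain beside that pump. Ifngr1 encodes the ligand-binding chain of the interferon gamma receptor, Irf1 a transcription factor downstream of it, and Bst2 tetherin, an interferon-induced protein that holds budding viruses at the cell surface. Nearly all nucleated cells display class I molecules, and in islets their amount is of interest because cytotoxic T cells that read them kill beta cells in autoimmune diabetes.

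The labels name no animal, so each age is 1 sample. Cells are not replicates, and no difference between the ages below has a test or a replicate check. Age differences are given as log2 ratios of the mean TPM of old over young cells, with 1 TPM added to each mean. A gene was called detected at TPM 1 or above. Shares of cells carry 95% Clopper-Pearson intervals, which cover counting error only. TPM keeps no read depth, so the precision behind a single value is unknown.

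Promoter windows are shown first for 5 members. H2-K1 and H2-D1 are the heavy chains found in nearly every cell, and B2m, H2-T23 and Bst2 are the members whose window holds GAAANNGAAA, the core of the interferon-stimulated response element. Windows run from 250 bases before to 50 bases after a transcription start annotated by RefSeq on build GRCm38.p6, 5′ to 3′ on the strand of the gene. Capitals mark the longest unbroken stretch shared by the windows of H2-K1 and H2-D1, and in the other 3 windows GAAANNGAAA or its complement TTTCNNTTTC.
H2-K1, chr17:34000298-34000597, minus strand: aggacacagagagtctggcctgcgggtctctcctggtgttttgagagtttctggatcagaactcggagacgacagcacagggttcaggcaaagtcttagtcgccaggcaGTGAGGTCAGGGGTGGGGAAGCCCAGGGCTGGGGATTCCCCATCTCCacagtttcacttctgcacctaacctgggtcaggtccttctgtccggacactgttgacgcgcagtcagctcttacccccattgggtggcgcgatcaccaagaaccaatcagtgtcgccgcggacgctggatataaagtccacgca
H2-D1, chr17:35262844-35263143, plus strand: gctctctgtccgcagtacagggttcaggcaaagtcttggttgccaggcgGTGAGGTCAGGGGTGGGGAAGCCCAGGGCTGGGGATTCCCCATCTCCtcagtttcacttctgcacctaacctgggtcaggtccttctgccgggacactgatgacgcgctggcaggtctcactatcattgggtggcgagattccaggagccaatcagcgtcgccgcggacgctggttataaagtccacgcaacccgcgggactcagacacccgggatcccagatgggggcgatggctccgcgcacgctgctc
B2m, chr2:122147437-122147736, plus strand: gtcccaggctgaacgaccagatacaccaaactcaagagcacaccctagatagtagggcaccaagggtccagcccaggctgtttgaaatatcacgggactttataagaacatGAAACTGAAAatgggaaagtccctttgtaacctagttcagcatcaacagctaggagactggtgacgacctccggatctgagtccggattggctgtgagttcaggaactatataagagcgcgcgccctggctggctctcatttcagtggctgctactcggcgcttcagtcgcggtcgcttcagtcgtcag
H2-T23, chr17:36032652-36032951, minus strand: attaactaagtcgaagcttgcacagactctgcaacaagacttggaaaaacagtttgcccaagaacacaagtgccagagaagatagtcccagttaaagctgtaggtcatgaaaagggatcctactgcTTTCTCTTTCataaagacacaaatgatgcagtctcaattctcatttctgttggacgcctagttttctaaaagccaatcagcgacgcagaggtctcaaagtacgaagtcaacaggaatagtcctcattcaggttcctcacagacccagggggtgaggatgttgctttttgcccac
Bst2, chr8:71537423-71537722, minus strand: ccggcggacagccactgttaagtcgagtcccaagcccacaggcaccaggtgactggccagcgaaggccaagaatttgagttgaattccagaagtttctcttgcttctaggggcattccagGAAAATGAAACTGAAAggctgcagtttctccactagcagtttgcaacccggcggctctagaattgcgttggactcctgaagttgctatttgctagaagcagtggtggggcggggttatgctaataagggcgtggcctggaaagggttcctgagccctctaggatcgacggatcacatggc
The stretch shared by H2-K1 and H2-D1 is 47 bases long and begins 141 bases before the start used for H2-K1 and 201 bases before that of H2-D1. The start used for H2-K1 lies inside the span that the same annotation gives for the whole gene, and so does its window. It was found in the window of no other gene (0 other genes among 32851 windows). GAAANNGAAA was searched on both strands and occurred in 3.44% of all windows. It lies 139 bases before the start of B2m and, on the opposite strand, 124 bases before that of H2-T23. In Bst2 2 overlapping matches begin 130 and 124 bases before the start. The windows of H2-K1, H2-D1, Tap1, Tapbp, Ifngr1 and Irf1 do not hold these letters. A match is a description of the letters and not evidence of binding. Likewise, the lack of an exact match does not show that a response element is absent.

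On chromosome 17 of GRCm38.p6 lie 5 members, within the major histocompatibility region. Tapbp spans 33919478 to 33929290, H2-K1 33996012 to 34000619, Tap1 34187556 to 34197225, H2-D1 35263094 to 35267497 and H2-T23 36029977 to 36032701. B2m lies on chromosome 2 from 122147687 to 122153082, Ifngr1 on chromosome 10 from 19591949 to 19610229, Irf1 on chromosome 11 from 53770014 to 53778374 and Bst2 on chromosome 8 from 71534255 to 71537472. Heavy chain genes are close copies, so reads can be assigned to the wrong one. Of all 50-base words in the GENCODE protein-coding transcripts of each gene, 6.87% were also found in transcripts of another gene for H2-K1, 13.9% for H2-D1 and 29.8% for H2-T23. H2-K1 shared 5.43% of its words with H2-D1. B2m, Ifngr1 and Bst2 shared 0 words with any other gene, and Tapbp shared 22.4%, mostly with the gene model Gm19412. How the authors assigned shared reads is not given in the sources used here, so the split between heavy chain genes is uncertain.

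Before the members are compared, 6 captures must be set apart. In each of them 12 to 15 of 16 macrophage and dendritic cell markers reached TPM 10, whereas none of the other 201 cells had more than 4. Of these, 1 is old (cell 162) and 5 are young (cells 18, 32, 49, 72 and 112). Their summed marker level was 28156 TPM in the old capture and 9801 to 29743 TPM in the young ones, against at most 191 TPM in the other 68 old cells and 261 TPM in the other 133 young cells. Lyz2, which encodes a lysozyme of macrophages, ran from 626 to 10608 TPM over the 6 captures. Itgam was listed at 0 in 3 of them, Adgre1 in 2 and Cd68 in 1. All 6 also held the insulin transcript Ins2 at 138682 to 459979 TPM. They are called macrophage-rich captures here. The threshold for them was set after the values had been seen, and results that rest on them are given with and without them.

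Cell numbers in the labels also fall into runs that differ in detected genes and in mitochondrial and nuclear noncoding RNA. The labels do not say what a run is. The 4 old ones begin at cells 139, 159, 191 and 200 and the last ends at cell 207. The 4 young ones begin at cells 1, 40, 55 and 87 and the last ends at cell 138. The runs divide into a kind low in mitochondrial rRNA and tRNA (40 old and 54 young cells) and a kind high in it (29 old and 84 young cells). Median detected genes per cell were 4078 in old cells and 4291.5 in young cells. Young cells 40 to 54 had the lowest median of any run, 2320, against 3944 in young cells 1 to 39. A run holds 1 age only, so runs and ages cannot be told apart, and values within the low and high kinds are given where they differ from the pooled one.

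The heavy chains H2-K1 and H2-D1 were the members found in the most cells at both ages. H2-K1 ran from 0.441 to 822 TPM in old cells with a median of 91.4, and from 0 to 1114 TPM in young cells with a median of 100.4. It was detected in 68 of 69 old cells (98.6%, 92.2 to 100.0%) and 132 of 138 young cells (95.7%, 90.8 to 98.4%). The mean was 152 ± 176 TPM in old cells and 145 ± 162 TPM in young cells (SD between cells), a log2 ratio of 0.07. The ages overlapped over almost the whole range, and the difference of the means was a small part of the SD. The log2 ratio was 0.25 in the low and -0.52 in the high runs. Only 8 of 29 old cells of the high runs reached 100 TPM, against 42 of 84 young cells.

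H2-D1 had a longer upper tail in old cells. It ran from 0 to 1687 TPM in old cells with a median of 66.6, and from 0 to 1086 TPM in young cells with a median of 61.4. Old cells had it in 91.3% of cases (82.0 to 96.7%) and young cells in 89.1% (82.7 to 93.8%). The mean was 173 ± 294 TPM in old cells and 127 ± 175 TPM in young cells, a log2 ratio of 0.45, and the ratio was positive in both kinds of runs (0.25 low, 0.49 high). The highest value was that of the old macrophage-rich capture, which held 14.1% of the old total, and the 5 young ones held 14.7% of the young total. Without them the log2 ratio was 0.42. The means of log2(TPM + 1), which weigh high cells less, were 0.07 apart. On that scale old minus young was 0.25 in the low and -0.08 in the high runs. Cell 196 held 22.7% of the old total of the high runs.

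At least one of H2-K1 and H2-D1 was detected in 69 of 69 old cells and 136 of 138 young cells. H2-K1 stood above H2-D1 in 55.1% of old and 58.7% of young cells. In TPM, which allows for length, the mean of H2-K1 ranked 295 among the 44448 genes in old cells and 345 in young cells.

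The third heavy chain, the nonclassical H2-T23 whose product (Qa-1) is a ligand of natural killer receptors, was found in a minority of cells. It ran from 0 to 126 TPM in old cells and from 0 to 422 TPM in young cells, with a median of 0 at both ages. Detection reached 24 of 69 old cells (34.8%, 23.7 to 47.2%) and 32 of 138 young cells (23.2%, 16.4 to 31.1%). Means were 13.4 ± 29.9 TPM in old cells and 13.9 ± 48.7 TPM in young cells (log2 ratio -0.05). The pooled value joined opposite values, -0.94 in the low and 0.94 in the high runs. None of the 15 young cells 40 to 54, the run with the fewest detected genes, had it, and young cells 1 to 39 had it in 38.5% of cells.

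**Figure D1:**
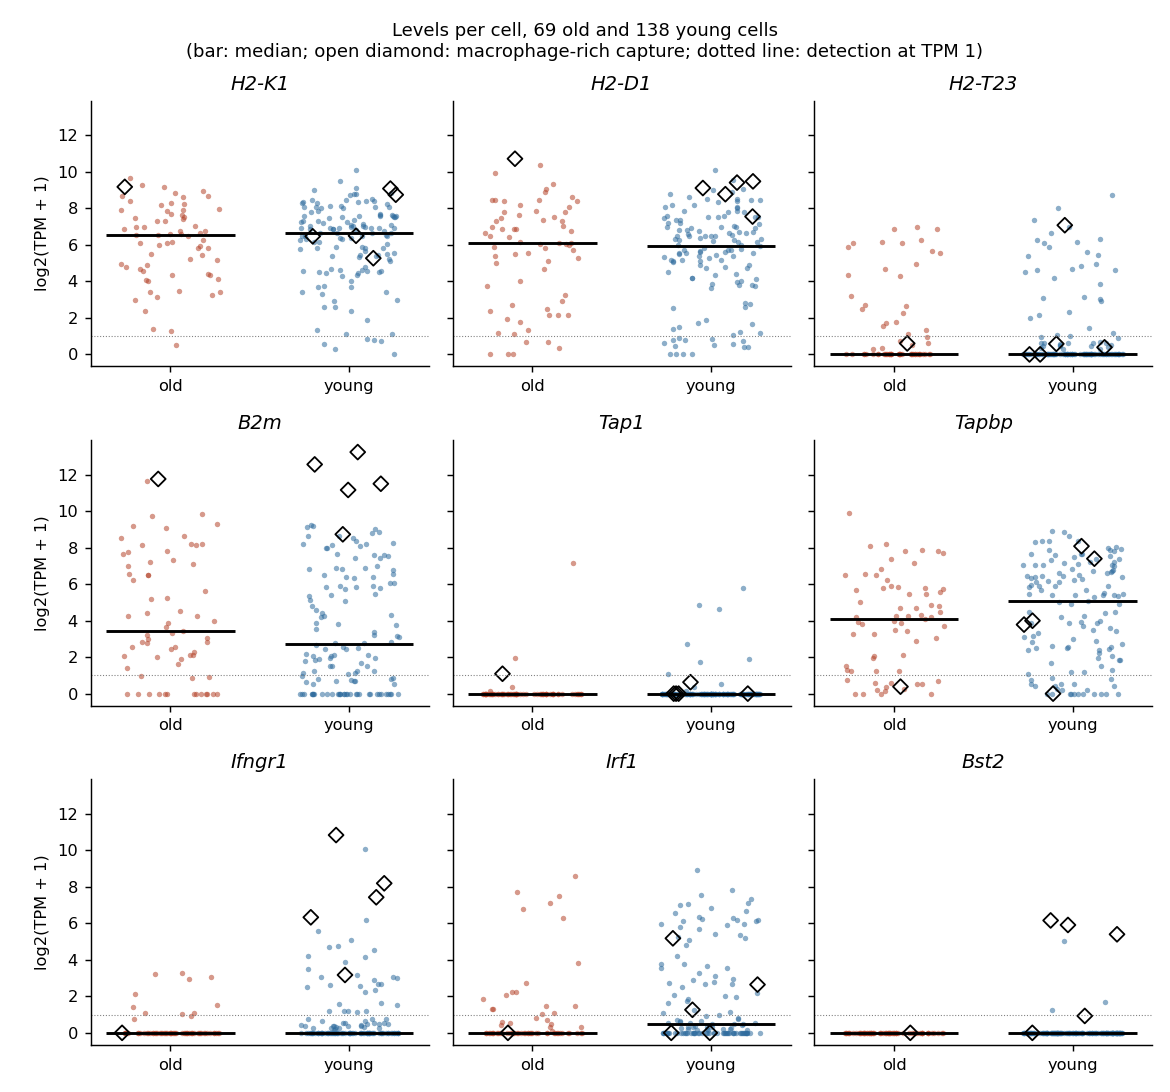
Levels of the 9 members in each cell on a log2(TPM + 1) axis, old cells left of young cells in every panel; the bar is the median, open diamonds are the 6 macrophage-rich captures and the dotted line is TPM 1. H2-K1 and H2-D1 fill a continuous band at both ages, B2m spans from 0 to 9636 TPM with the macrophage-rich captures at its top, and Tap1 and Bst2 lie at 0 in nearly all cells.

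Over all cells, the macrophage-rich captures among them, B2m had the highest mean of the 9 genes at both ages and yet a low median. It ran from 0 to 3472 TPM in old cells with a median of 9.92, and from 0 to 9636 TPM in young cells with a median of 5.55. It was detected in 53 of 69 old cells (76.8%, 65.1 to 86.1%) and 94 of 138 young cells (68.1%, 59.6 to 75.8%), and 20 old and 34 young cells reached 100 TPM. Means were 203 ± 581 TPM in old cells and 225 ± 1008 TPM in young cells, a log2 ratio of -0.15. Although the light chain pairs with every heavy chain, B2m lay below H2-K1 in 68.1% of old and 68.8% of young cells. This is a comparison of messenger RNA levels per length in amplified cDNA, and protein was not measured.

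The mean of B2m changed direction without the macrophage-rich captures. They held B2m at 423 to 9636 TPM with a median of 3183, against a median of 6.07 TPM in the other 201 cells, and were 5 of the 6 highest cells. The old capture held 24.8% of the old total and the 5 young ones 68.5% of the young total. Without them the means were 154 ± 425 TPM in 68 old cells and 73.5 ± 135 TPM in 133 young cells, and the log2 ratio was 1.06. The remaining high cell was the old cell 203 with 3211 TPM. It had none of the macrophage markers (sum 0) but held the class II genes H2-Aa at 151 and H2-Eb1 at 316 TPM. Without the macrophage-rich captures and the 4 cells in which at least 2 class II genes reached TPM 10, cell 203 among them, the log2 ratio was 0.59. The old mean of B2m was then 112 TPM, below H2-D1 (155 TPM) and H2-K1 (137 TPM). The share of cells with B2m moved little, to 76.5% of old and 66.9% of young cells without the macrophage-rich captures.

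B2m also varied by run. It was detected in 67.5% of old and 74.1% of young cells of the low runs, and in 89.7% of old and 64.3% of young cells of the high runs. All 20 old cells 139 to 158 had it, and 65.6% of the old cells 159 to 190. The log2 ratio was 0.61 in the low and -1.04 in the high runs. The young capture 72 alone held 43.9% of the young total of the high runs, and the young capture 112, of the same kind, had 6034 TPM. On the scale of mean log2(TPM + 1), which weighs such cells less, old minus young was 0.49 in the low and 0.69 in the high runs. Cells with B2m had more detected genes than cells without, a median of 4283 against 2782 in old cells and 4387 against 4099 in young cells. Whether the depth of a cell sets its detection was not tested.

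**Figure D2:**
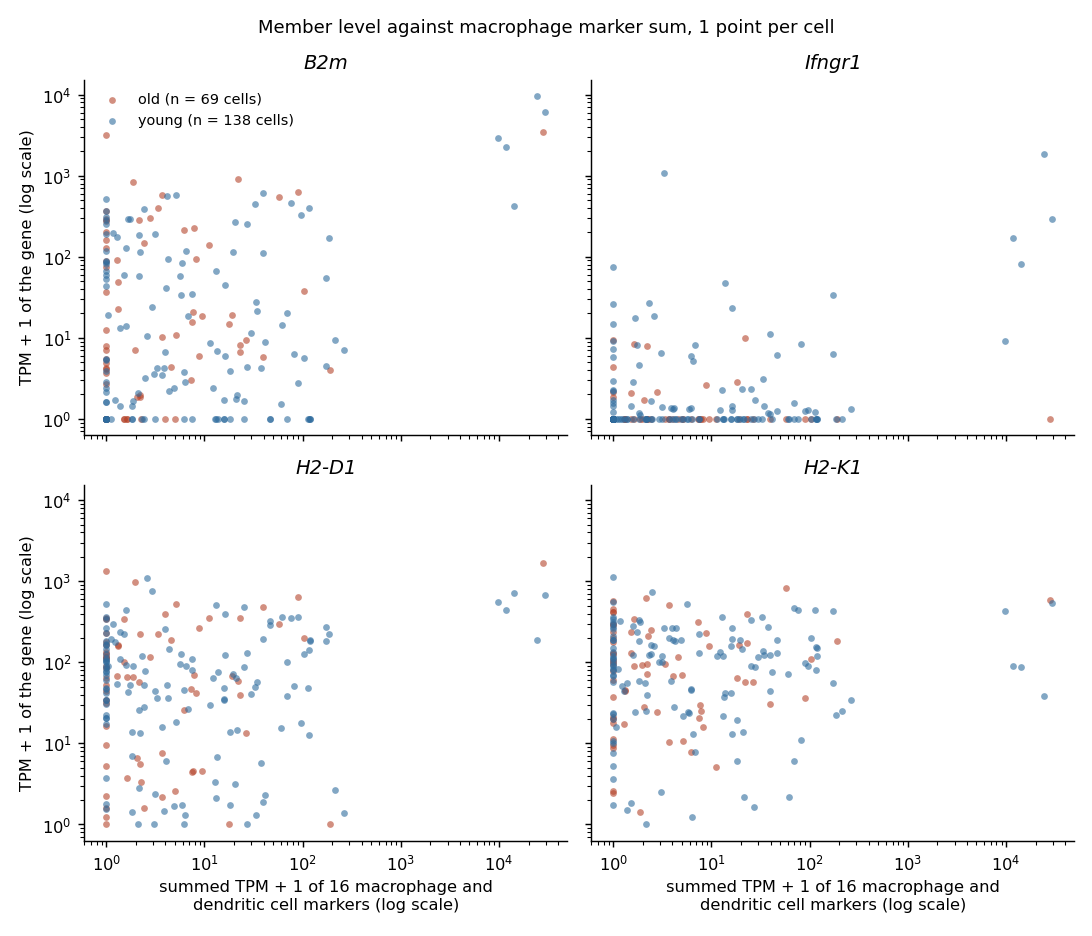
Level of B2m, Ifngr1, H2-D1 and H2-K1 in each cell (vertical, TPM + 1, log scale) against the summed TPM + 1 of 16 macrophage and dendritic cell markers (horizontal, log scale); old and young cells differ in colour. The 6 captures at the far right stand high for B2m (423 to 9636 TPM) and inside the range of the other cells for H2-K1 (37.6 to 579 TPM).

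Of the peptide-loading genes, Tapbp was common and Tap1 rare. Tapbp ran from 0 to 968 TPM in old cells with a median of 15.9, and from 0 to 480.0 TPM in young cells with a median of 32.2. Detection reached 78.3% of old cells (66.7 to 87.3%) and 82.6% of young cells (75.2 to 88.5%). Means were 58.5 ± 131 TPM in old cells and 74.6 ± 99.7 TPM in young cells, a log2 ratio of -0.34. The ratio was negative in both kinds of runs, -0.26 in the low and -1.09 in the high runs. Only 3 of the 9 old cells 191 to 199 had Tapbp, against 90.0% of the old cells 139 to 158, which belong to the same kind. Of the old total, 24.0% came from cell 190.

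Tap1 was detected in 3 of 69 old cells (4.35%, 0.906 to 12.2%) and 7 of 138 young cells (5.07%, 2.06 to 10.2%). The mean was 2.14 ± 17.2 TPM in old cells and 0.864 ± 5.57 TPM in young cells. The old mean rested on cell 202, which had 143 TPM and held 97.1% of the old total, while the highest young cell, cell 7, had 54.3 TPM. The log2 ratio of 0.75 therefore describes 1 cell: it was -0.47 without the highest cell of each age. Cell 202 also had the highest old level of Irf1 at 392 TPM and an H2-T23 level of 67.1 TPM.

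Ifngr1 had a lower mean in old cells in the values as reported and under all 21 alternative settings tried. It ran from 0 to 8.85 TPM in old cells and from 0 to 1828 TPM in young cells, with a median of 0 at both ages. It was detected in 10 of 69 old cells (14.5%, 7.17 to 25.0%) and 36 of 138 young cells (26.1%, 19.0 to 34.2%). No old cell reached TPM 10 and 15 young cells did. Means were 0.627 ± 1.90 TPM in old cells and 27.9 ± 182 TPM in young cells, a log2 ratio of -4.15. The lowest and highest run means were 0 and 0.880 TPM among old runs, against 5.36 and 61.0 TPM among young runs. Without the macrophage-rich captures the young cells 40 to 54 had a mean of 0.0675 TPM, and the run means of the ages overlapped.

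Few cells set the size of this difference. The macrophage-rich captures held 61.8% of the young total, with 1828 TPM in cell 72, while the old one had 0. A further young cell outside them, cell 1, had 1091 TPM. Without the macrophage-rich captures the means were 0.636 TPM in old cells and 11.0 TPM in young cells (log2 ratio -2.88), and the shares were 14.7% and 23.3%. On the scale of mean log2(TPM + 1), old minus young was -0.75 over all cells and -0.51 without those captures.

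Irf1 was found in a smaller share of old cells, mainly in the high runs. It ran from 0 to 392 TPM in old cells with a median of 0, and from 0 to 477 TPM in young cells with a median of 0.384. It was detected in 18 of 69 old cells (26.1%, 16.3 to 38.1%) and 56 of 138 young cells (40.6%, 32.3 to 49.3%). Means were closer, 16.7 ± 60.6 TPM in old cells and 21.6 ± 55.8 TPM in young cells (log2 ratio -0.35), and 5 old and 8 young cells reached 100 TPM. On the scale of mean log2(TPM + 1), old minus young was -0.88. In the low runs it was detected in 30.0% of old and 33.3% of young cells (log2 ratio of means -0.14), and in the high runs in 20.7% of old and 45.2% of young cells (-0.81). Weighing the runs of an age equally gave a log2 ratio of 0.18. Shares varied widely within an age, from 0 of 9 old cells 191 to 199 to 62.5% of the 8 old cells 200 to 207, and from 6.67% of the young cells 40 to 54 to 50.0% of the young cells 55 to 86. The macrophage-rich captures had little of it, at 0 to 35.2 TPM.

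Bst2 was listed at 0 in all 69 old cells, with an upper bound of 5.21% on the share of cells at TPM 1 or above that covers counting error only, and was detected in 6 of 138 young cells (4.35%, 1.61 to 9.22%). Of these 6, the macrophage-rich captures 18, 32 and 112 had 70.4, 59.1 and 41.2 TPM and held most of the young total, since all 5 young captures together held 83.0% of it. Outside the captures Bst2 reached 31.6 TPM in the young cell 11 and TPM 1 or above in only 3 of 133 young cells. No fold is given against a group at 0.

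**Figure D3:**
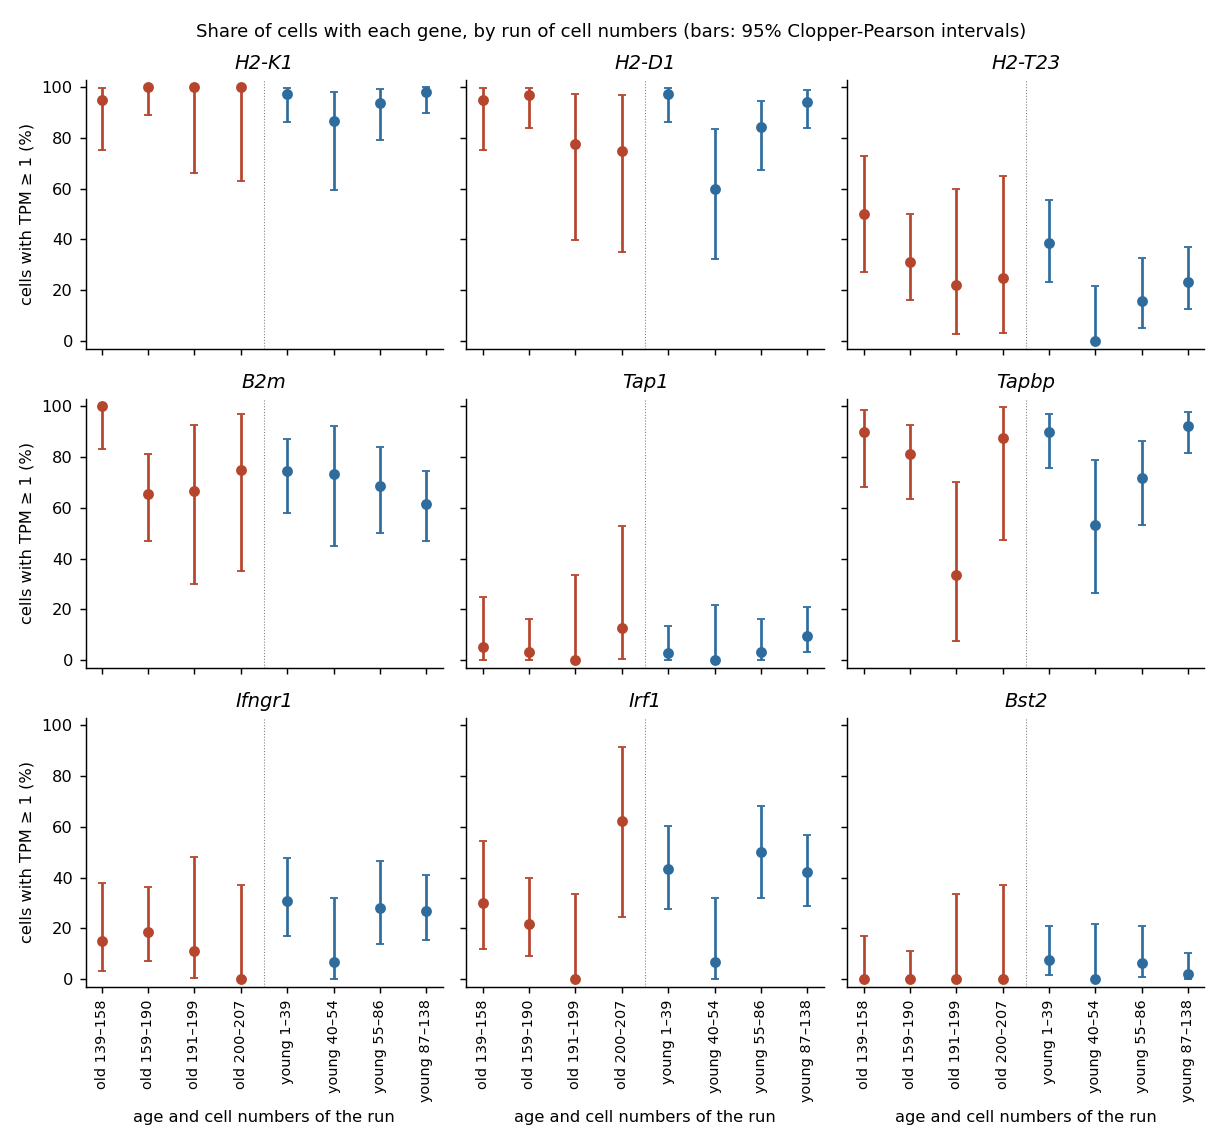
Share of cells with TPM 1 or above for each member in the 4 old runs (left) and the 4 young runs (right), with 95% Clopper-Pearson intervals. Shares of H2-K1 lie between 86.7% and 100% in all runs, whereas those of Irf1 run from 0% to 62.5% over the old runs and from 6.67% to 50.0% over the young runs.

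Set in order of mean TPM, the members ran B2m, H2-D1, H2-K1, Tapbp, Irf1, H2-T23, Tap1, Ifngr1 and Bst2 in old cells, and B2m, H2-K1, H2-D1, Tapbp, Ifngr1, Irf1, H2-T23, Bst2 and Tap1 in young cells. Every step between neighbours in these orders was smaller than the larger of both SDs between cells. Without the macrophage-rich captures the old order was the same. The young order then was H2-K1 (141 TPM), H2-D1 (112), Tapbp (73.9), B2m (73.5), Irf1 (22.1), H2-T23 (13.4), Ifngr1 (11.0), Tap1 (0.893) and Bst2 (0.265). Counted by size alone, 1 of the 9 members was at least 1.5-fold higher in old cells (Tap1) and 2 were at least 1.5-fold lower. These were Ifngr1 and Bst2, of which Bst2 counts only through the added 1 TPM, its old mean being 0. Over the 12155 genes whose mean reached 1 TPM in one age or the other, 16.8% were higher and 26.4% lower by that size. Tap1, Ifngr1 and Bst2 were also the members that passed the filter on low values through 1 age only, which favours a difference. The median log2 ratio of the 9 members was -0.15, and -0.10 without Bst2, beside -0.10 over all 12155 genes. Within the low runs 2 members were higher and 3 lower by that size (background 23.8% and 34.5%), and within the high runs, where 7 passed the filter, 1 was higher and 4 lower (background 21.9% and 32.8%). Without the macrophage-rich captures 8 passed, with 2 higher (B2m and Tap1) and 1 lower (Ifngr1), against a background of 17.2% higher and 25.4% lower.

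**Figure D4:**
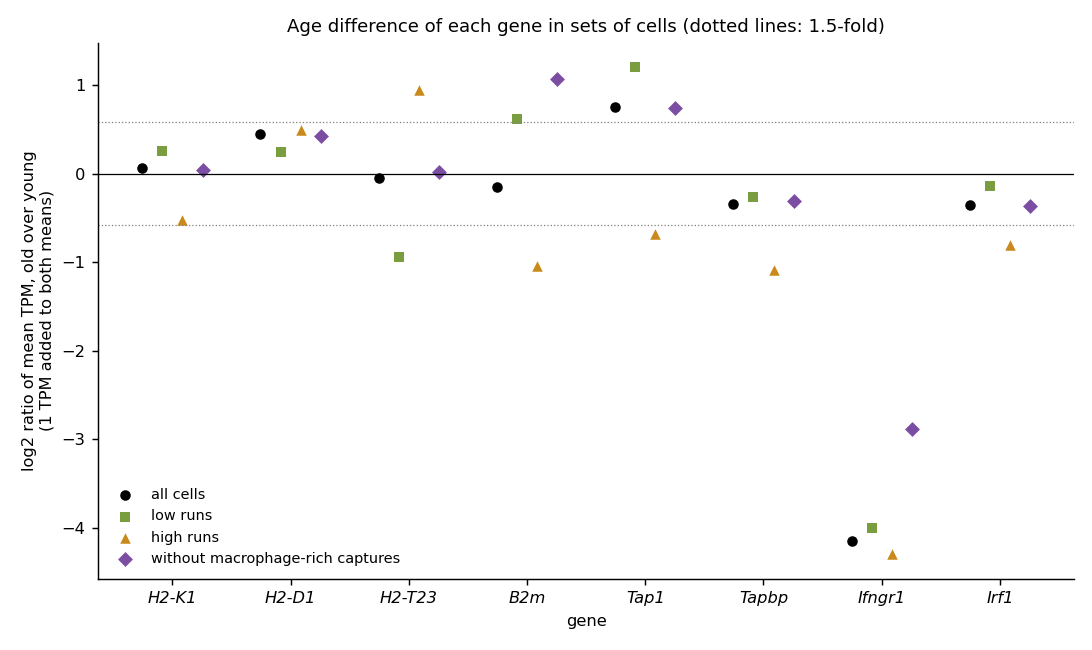
Log2 ratios of mean TPM, old over young, for 8 members in all cells, in the low and high runs, and without the macrophage-rich captures; dotted lines mark 1.5-fold, and Bst2 is left out because it is listed at 0 in all old cells. B2m lies at -0.15 with all cells and at 1.06 without the captures, H2-T23 lies at -0.94 in the low and 0.94 in the high runs, and Ifngr1 lies between -4.30 and -2.88 in the 4 sets.

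Joint detection of the light chain with both classical heavy chains was counted per cell. B2m, H2-K1 and H2-D1 were all detected in 48 of 69 old cells (69.6%, 57.3 to 80.1%) and 80 of 138 young cells (58.0%, 49.3 to 66.3%). The intervals overlap. A cell held a median of 4 of the 9 members at both ages, from 1 to 7 in old cells and from 1 to 8 in young cells.

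Coexpression was described for the 6 members detected in at least 25% of all cells, as Pearson's r of log2(TPM + 1) after each run was centred on its own mean. The cells share a fixed total and may share animals and chips, so r is a description without a p. Over the 15 pairs the median r was 0.03 in 69 old cells (-0.09 to 0.28) and 0.03 in 138 young cells (-0.07 to 0.16). All pairs of the 5973 genes detected as often had a median of 0.05 in old and 0.02 in young cells, and a 95th percentile of 0.26 in old and 0.17 in young cells. The members therefore lay in the middle of gene pairs in general, with 1 pair above that percentile. This was H2-D1 with Tapbp, at 0.28 in old cells (0.15 in young cells). H2-K1 with H2-D1 had r 0.18 in old and 0.10 in young cells, and H2-K1 with B2m had -0.04 in old and -0.02 in young cells. The r of H2-D1 with B2m was 0.18 in old and 0.15 in young cells, and without the macrophage-rich captures it was 0.12 in old and 0.02 in young cells.

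**Figure D5:**
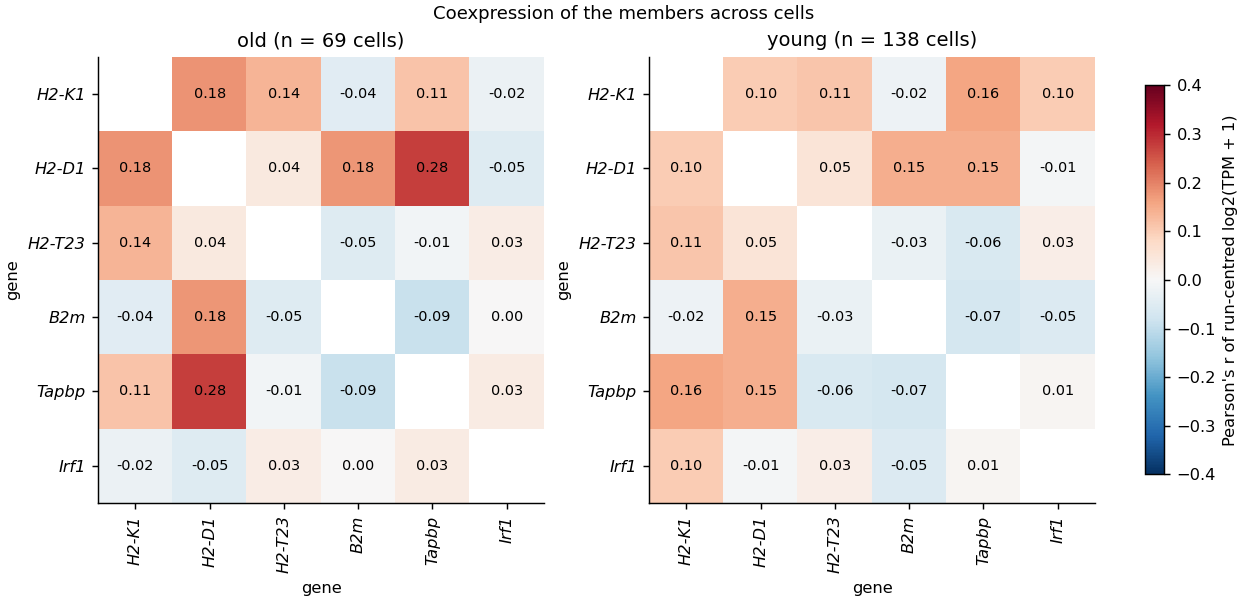
Pearson's r between 6 members across cells, old cells on the left (n = 69) and young cells on the right (n = 138), after centring each run. Most values are close to 0, 9 of 15 pairs are above 0 at each age, and the highest value is H2-D1 with Tapbp in old cells at 0.28.

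The genes whose cell-to-cell pattern was most like a member's were sought over all 207 cells among 5079 genes with a proper symbol. For B2m they included Ftl1 (r 0.42), which encodes ferritin light chain, and its copy Ftl1-ps1 (0.42). Without the macrophage-rich captures these values were 0.30 and 0.29. For H2-D1 they were Ctsb (0.35), the lysosomal protease cathepsin B, Lgals3bp (0.32), a secreted glycoprotein induced by interferons, and Atp6v0b (0.30), a subunit of the proton pump of lysosomes and granules. Lgals3bp stayed at 0.31 without the captures, and had r 0.50 in old and 0.19 in young cells. For the other members the highest were Btg3 for H2-K1 (0.27), Atp7a for H2-T23 (0.31), Cct5 for Tapbp (0.27) and Zfp655 for Irf1 (0.31, and 0.33 without the captures).

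Around the members, the class I list held 28 measured genes of 38 in the table, of which 4 were at least 1.5-fold higher and 7 lower in old cells (median log2 ratio -0.10). These are 14.3% and 25.0% of the list, near the 16.8% and 26.4% of all genes. Tap1 and Mr1 passed the filter on low values through old cells only. H2-Q6, H2-Q7, Rfxank and Ciita passed it through young cells only. Without the macrophage-rich captures 6 were higher and 6 lower of 27, or 22.2% each, beside 17.2% higher and 25.4% lower of all genes. H2-T22, another nonclassical heavy chain, had means of 19.9 ± 49.6 TPM in old cells and 8.68 ± 29.2 TPM in young cells (1.11), positive in the low and high runs (1.29 and 0.43). Psmb10, an immunoproteasome subunit, had 32.0 ± 72.6 TPM in old cells and 14.8 ± 48.9 TPM in young cells (1.07, with 1.37 in the low and 0.15 in the high runs). Psme1, a subunit of the proteasome activator, had 24.7 ± 63.6 TPM in old cells and 52.6 ± 164 TPM in young cells (-1.06). Its ratio was -1.59 in the low and -0.58 in the high runs, and -0.74 without the macrophage-rich captures. Erap1, a peptide-trimming enzyme, was at -0.58 (-0.19 in the low and -1.96 in the high runs). H2-T22 was detected in 37.7% of old and 29.0% of young cells, and Psmb10 in 39.1% of old and 27.5% of young cells.

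Of the interferon receptor and signalling list, 22 of 25 genes were measured, 1 at least 1.5-fold higher and 8 lower in old cells (median -0.33, beside -0.10 over all genes). These are 4.55% and 36.4% of the list, beside 16.8% and 26.4% of all genes. The higher gene, Irf7, passed the filter on low values through old cells only. Of the lower genes, Ifngr1, Ifngr2 and Irf8 passed it through young cells only. Passing through 1 age only favours a difference. Without the macrophage-rich captures 1 was higher and 6 lower of 21 (4.76% and 28.6%, beside 17.2% and 25.4% of all genes). The median was then -0.32, beside -0.08. Of the 22 genes of this list measured in the low runs, 6 were higher and 10 lower (27.3% and 45.5%, beside 23.8% and 34.5% of all genes). Of the 21 measured in the high runs, 1 was higher and 13 lower (4.76% and 61.9%, beside 21.9% and 32.8%). Jak1, the kinase bound to interferon receptors, had 39.1 ± 61.4 TPM in old cells and 32.2 ± 36.0 TPM in young cells (0.28). Its ratio was 0.57 in the low and 0.02 in the high runs, although fewer old cells had it (73.9% against 86.2% of young cells). Stat3, a transcription factor of cytokine signalling, was at -0.36 (-0.14 in the low and -1.36 in the high runs). It was detected in 59.4% of old and 76.8% of young cells. Usp18, an inhibitor of the type I interferon receptor, had 8.88 ± 30.1 TPM in old cells and 25.6 ± 67.3 TPM in young cells (-1.43, with -2.66 in the low and -0.63 in the high runs). Interferon-stimulated genes gave 32 measured of 51, with 7 higher and 10 lower (median -0.09), or 21.9% and 31.2% of the list beside 16.8% and 26.4% of all genes. Of the higher genes, Ifitm3, Oas2 and Trim21 passed the filter on low values through old cells only. All of the lower genes but Rsad2 passed it through young cells only. These counts therefore rest largely on genes near the filter. In the low runs the median was -0.34, with 8 higher and 11 lower of 28 (28.6% and 39.3%, beside 23.8% and 34.5% of all genes). In the high runs it was 0.29, with 13 higher and 14 lower of 32 (40.6% and 43.8%, beside 21.9% and 32.8%). Without the macrophage-rich captures 8 were higher and 7 lower of 30 (26.7% and 23.3%, beside 17.2% and 25.4%). Ifitm2, which blocks viral entry, had 102 ± 198 TPM in old cells and 56.8 ± 122 TPM in young cells (0.84, positive in both kinds of runs). Cmpk2 was at 0.79 pooled, but -2.61 in the low and 1.87 in the high runs. Ifi35 was at -0.37 (-1.31 low, 0.29 high). Lgals3bp had 173 ± 213 TPM in old cells and 196 ± 225 TPM in young cells (-0.18, with -0.18 low, -0.66 high). The 6 interferon genes looked for (Ifng, Ifnb1, Ifna2, Ifna4, Ifnl2 and Ifnl3) were listed at 0 in every cell of both ages.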

How the data were processed

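Single islet cells were captured on a Fluidigm C1 chip, with SMARTer cDNA synthesis and Nextera XT library preparation, as the labels' protocols state. Expression is in TPM as deposited by the authors, 1 column per cell for 207 cells, of which 0 were unused. The submitters' processing notes name CASAVA 1.8.2, FastQC and build GRCm38 (mm10). The aligner and counting program, like the annotation, were not given in the sources used here. Of 44448 rows of NCBI Gene numbers, 39725 were matched to symbols in a RefSeq table of GRCm38.p6, and 4723 were not. Groups follow the labelled age. All cells entered the main values, and doublets were not called.

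Ratios used a pseudocount of 1 TPM. A gene counted as measured if its mean reached 1 TPM in one age or the other, and 1.5-fold counts describe size only. Passing this filter through 1 age only favours a difference in that direction, for the lists and for all genes alike. No p-value was computed, since each age is 1 sample. The members and gene lists were chosen with earlier results of these data known. Named genes were the members, the 2 highest and 2 lowest log2 ratios of each list among other genes whose mean reached 10 TPM in one age or the other, and the 3 genes with the highest r to each member that was detected in at least 25% of all cells, of which examples are given. Names and values of single markers in the macrophage-rich captures were added after they were seen. Runs are change points along the cell numbers in detected genes, mitochondrial shares and nuclear noncoding RNA, at least 8 cells long. Ratios, correlations and change points were tested on simulated data. Shared words of 50 bases were counted in GENCODE M21 transcripts, on both strands. Of several windows for a gene, the first listed was used. Scripts ran in Python 3.11.15 with numpy 2.4.6, scipy 1.17.1, pandas 2.3.3 and matplotlib 3.10.9. Alternatives covered the pseudocount, the detection level, scaling without insulin and mitochondrial genes, cells with at least 3000 genes, each kind of run, leaving out each run, and leaving out cells by markers or by the highest value.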

Additional observations from a re-analysis of the deposited data

How the results depend on the processing

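No paired analysis was possible because the labels name no animal and the cell numbers are not shared between the ages. Of 21 alternatives to each log2 ratio of old over young, H2-D1 stayed positive and Ifngr1 stayed negative in 21, Tapbp was negative in 20 and Irf1 in 19. The scale of mean log2(TPM + 1) was not an alternative within a kind of run. On it H2-D1 was at -0.08 in the high runs. The sign of Bst2 is fixed by its old values of 0. B2m ran from -1.04 to 1.06. Tap1 turned negative as a difference of mean log2(TPM + 1) (-0.021), in the high runs (-0.68), without the old cells 200 to 207 (-0.80) and without the highest cell of each age (-0.47), all settings that lower the weight of cell 202 or leave it out. The number of members at least 1.5-fold higher, 1 as reported, was 0 with a pseudocount of 10, as a difference of mean log2, rescaled without insulin and mitochondrial genes, without the old cells 200 to 207 and without the highest cells. It was 2 in cells with at least 3000 genes, in the low runs, without cells with 2 or more markers of other cells, and without the macrophage-rich captures, with or without the class II cells, and 3 without the young cells 1 to 39. The number at least 1.5-fold lower, 2 as reported, was 1 with a pseudocount of 10, without the young cells 1 to 39 and without the macrophage-rich captures, with or without the class II cells, 4 in the high runs and without the old cells 200 to 207, and 3 in the low runs, without the old cells 159 to 190, without the highest cells and on the scale of mean log2. The median over the members was -0.81 in the high runs, where 7 passed the filter on low values. Beyond what is said of Tap1 and of leaving out captures, the cause was not tested. The median r of member pairs stayed between -0.03 and 0.06 at both ages. The macrophage-rich and class II alternatives were chosen after seeing the data. Depth is unknown, so a gene listed at 0 may lie below what a cell's reads could show.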

Other observations

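Class II genes, which present peptides from outside the cell and mark macrophages, dendritic cells and B cells, were concentrated in a few captures. Of the 8 class II genes looked for, 6 were measured. Their log2 ratios of old over young had a median of -2.28, and by a size of 1.5-fold 0 were higher and 5 lower, beside 16.8% and 26.4% of all genes. Shares of cells ran the other way for some of them. Cd74 was detected in 20.3% of old and 10.9% of young cells. H2-Aa was found in 24.6% of old and 6.52% of young cells, and H2-Ab1 in 18.8% of old and 6.52% of young cells. Shares were close for H2-Eb1, at 14.5% of old and 13.0% of young cells. They were equal at both ages for H2-DMa (5.80%) and H2-DMb1 (2.90%). The invariant chain gene Cd74 had means of 63.8 ± 523 TPM in old cells and 235 ± 2240 TPM in young cells, and H2-Aa had 87.1 ± 693 TPM in old cells and 254 ± 2445 TPM in young cells. A single cell held 98.7% of the old and 80.5% of the young Cd74. In the low runs the class II median was -0.80, with 1 higher and 3 lower of 6 (16.7% and 50.0%, beside 23.8% and 34.5% of all genes). In the high runs, where the young captures 72 and 112 lie, it was -5.46. There 1 was higher and 5 lower of 6 (16.7% and 83.3%, beside 21.9% and 32.8%). Cd74 was at 0.51 in the low and -6.94 in the high runs, and H2-Aa at 0.61 and -6.40. Without the 6 macrophage-rich captures 4 class II genes were measured, and all 4 were at least 1.5-fold higher in old cells (median 1.46), beside 17.2% of all genes. These were H2-Aa, H2-Ab1, H2-Eb1 and H2-DMa. All 4 passed the filter on low values through old cells only, which favours a difference in that direction. Cd74, at 0.49 without the captures, and H2-DMb1, at 0.09, did not pass it. The old cell 203 alone had 466 TPM of class II genes. Without that cell and 3 others with class II genes, 1 gene was left to measure.

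The macrophage-rich capture of the old group and those of the young group differed in Ifngr1, at 0 TPM in the old capture and 8.01 to 1828 TPM in the 5 young ones. A single old capture gives no measure of spread.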
